A study of Mus musculus with 10 samples.

Results

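Each heartbeat starts with calcium entering the cardiomyocyte through the L-type channel of the surface membrane. That calcium opens the ryanodine receptor, and the sarcoplasmic reticulum releases its own, larger store. Relaxation follows when the pump SERCA2a returns calcium to the store and the sodium-calcium exchanger carries the rest out of the cell. The 10 genes described here encode this cycle and were chosen by name, with earlier results of these data known. Cacna1c and Cacnb2 encode the pore and a β subunit of the L-type channel. Jph2, Ryr2, Casq2, Trdn and Hrc build the junction at which calcium is released. Atp2a2 and Pln encode the pump and its inhibitor, and Slc8a1 encodes the exchanger. They are 10 of the 56748 gene identifiers in the count files, and all 10 had enough counts to be among the 15454 genes tested.

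RNA came from 10 whole hearts, with both atria and the ventricles, of wild-type male C57BL/6 mice that were bought at 8 weeks of age. Of these, 5 mice ran on a treadmill under a forced protocol and 5 age-matched mice stayed sedentary, with 1 library per mouse. The training mice rested for at least 2 weeks, were acclimatized for 1 week, and then ran at 15 m/min for 120 min per day, 5 days per week, for 8 weeks. The comparison asks how the RNA of the calcium cycle in the heart differs after this training.

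Counts on genes ran from 29461697 to 35945417 per training library and from 35196993 to 39431030 per sedentary library. Markers of cardiomyocytes, of ventricle and of atrium were present in every heart, except that the ventricular gene Hand1 had a mean of 0.0198 CPM (a count scaled by its library's total). The atrial markers differed between hearts and are set beside the results below. Of the 15454 genes, 1084 (7.01%) differed at a false discovery rate (FDR) below 0.1, with 425 higher (2.75%) and 659 lower (4.26%) in training hearts. When libraries were scaled by their totals alone, this split became 1029 higher and 339 lower, with a shift of 0.053 in the median log2 fold change of all genes.

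Of the 10 calcium cycling genes, 3 fell after training, Casq2, Cacna1c and Jph2, and none rose, while with library totals alone 2 fell and Cacnb2 rose. This is 3 of 10 in a table of which 4.26% were called lower. The members and the lists below were chosen with earlier results of these data known, so such shares describe them and do not test them. Each fall was small, between 9.56% and 14.1%. Cacnb2 was the single member with a fold change above 0 and did not pass the test. The other 9 were below 0 (median −0.12 on the log2 scale, against 0.00026 over all genes tested and −0.11 over 6 cardiomyocyte markers), although Atp2a2 and Pln came out above 0 when libraries were scaled by their totals alone. Without adjustment for the number of genes, 8 of the 10 had a p below 0.05, against 3087 of all 15454 genes. Casq2 and Trdn did not overlap between the groups, 2 of 10 where 5.06% of all genes did not. In whole-heart RNA, fewer cells of a type and less RNA per cell cannot be told apart.

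**Figure D1:**
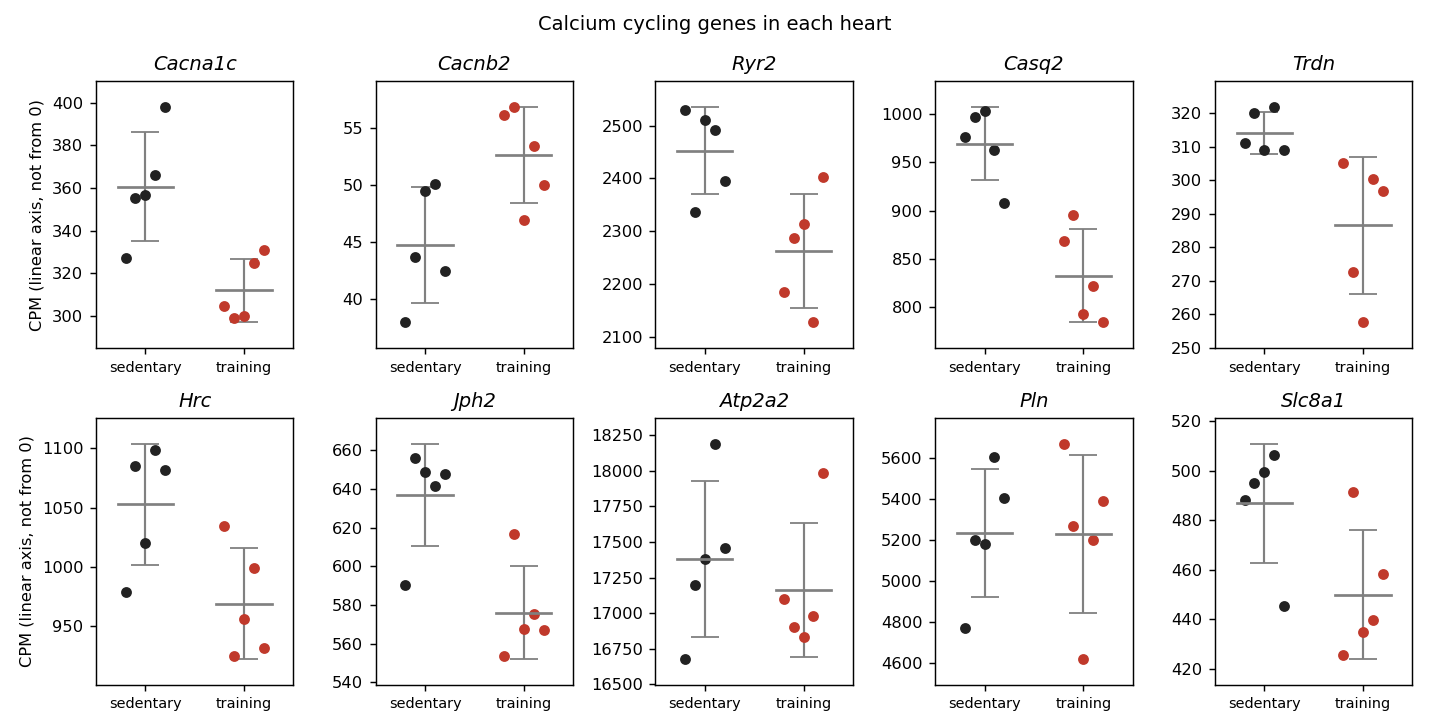
Level of the 10 calcium cycling genes in each heart, in CPM on linear axes that do not start at 0, with 5 sedentary (black) and 5 training (red) hearts per panel, the mean as a long bar and the SD as whiskers. The training hearts of Casq2 and Trdn all sit below the sedentary hearts, while Pln and Atp2a2 spread over the same range in both groups.

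The plot of CPM by heart shows how narrow these differences were. The SD within a group was between 2.01% and 11.4% of the mean for every gene in both groups, and Cacnb2 had the widest. The 95% confidence intervals of the log2 fold changes lay below 0 for Cacna1c, Ryr2, Casq2, Trdn, Hrc, Jph2 and Slc8a1 and above 0 for Cacnb2. They included 0 for Atp2a2 and Pln. These intervals are not adjusted for the number of genes tested.

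**Figure D2:**
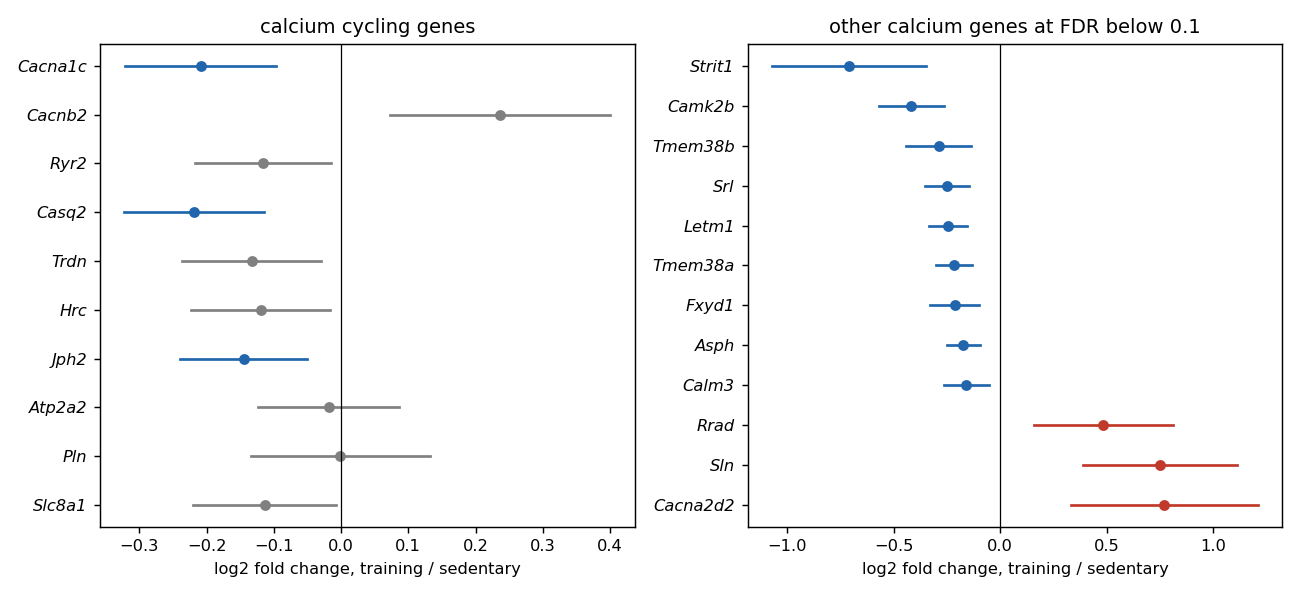
Log2 fold change, training over sedentary, with 95% confidence intervals as lines, for the 10 calcium cycling genes (left) and for the 12 other calcium genes at an FDR below 0.1 (right), in blue where called lower, in red where called higher and in grey where not called. Among the members Casq2 (−0.22) and Cacna1c (−0.21) lie farthest below 0, and among the others Strit1 (−0.71) lies lowest and Cacna2d2 (0.77) highest.

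The RNA of the L-type channel's pore and β subunit had fold changes of opposite sign, and only the pore gene was called in the edgeR fit. Cacna1c (ENSMUSG00000051331, chromosome 6 of GRCm39, 118564201 to 119173851, minus strand) encodes Cav1.2, the pore through which the triggering calcium enters. In sedentary hearts 1 to 5 it was at 327, 355, 357, 366 and 398 CPM, and in training hearts 1 to 5 at 305, 299, 300.3, 325 and 331 CPM. Of the training hearts, 4 lay below every sedentary heart, and training heart 5 overlapped with sedentary heart 1. The mean was 312 ± 14.9 CPM (SD, n = 5) after training and 361 ± 25.4 CPM (SD, n = 5) in sedentary hearts. The log2 fold change was −0.21 (standard error 0.052; edgeR's quasi-likelihood test, Benjamini-Hochberg adjusted p = 0.0460). Without training heart 3 (edgeR, Benjamini-Hochberg adjusted p = 0.111) or sedentary heart 3 (adjusted p = 0.104 in the same test), Cacna1c was no longer called.

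Cacnb2 (ENSMUSG00000057914, chromosome 2, 14607899 to 14994127, plus strand) encodes the β2 subunit, which brings the channel to the membrane and sets its gating. Its sedentary hearts 1 to 5 were at 37.9, 43.7, 49.5, 50.1 and 42.5 CPM, and its training hearts at 56.2, 56.9, 46.9, 53.4 and 50.0 CPM. Training hearts 1, 2 and 4 lay above every sedentary heart, while training hearts 3 and 5 lay within the sedentary range. The means were 52.7 ± 4.21 and 44.7 ± 5.08 CPM (SD, n = 5 each), and the log2 fold change was 0.24 (standard error 0.076) with an adjusted p of 0.107 in edgeR's test with Benjamini-Hochberg adjustment. It thus missed the threshold in the edgeR fit, but passed it in DESeq2's Wald test (Benjamini-Hochberg adjusted p = 0.0620) and in edgeR with library totals alone (adjusted p = 0.0412). In all it was called in 3 of 13 alternatives, where the adjusted p reached 0.337 (edgeR, Benjamini-Hochberg). With 1 heart left out it was called in 2 of 10 fits, with an adjusted p up to 0.194 in the same test.

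The junction is held together by Jph2 (ENSMUSG00000017817, chromosome 2, 163178162 to 163239920, minus strand), which encodes junctophilin 2, a tether between the surface membrane and the sarcoplasmic reticulum. Sedentary hearts 1 to 5 were at 590.3, 656, 649, 642 and 648 CPM, and training hearts 1 to 5 at 554, 617, 568, 575 and 567 CPM. All training hearts but heart 2 lay below the lowest sedentary heart. That lowest sedentary heart, heart 1, stood well apart from the other 4. The means were 576 ± 24.0 CPM after training and 637 ± 26.6 CPM in sedentary hearts (SD, n = 5 each), and the log2 fold change was −0.14 (standard error 0.044; edgeR, Benjamini-Hochberg adjusted p = 0.0884). The call was close to the threshold and was lost in 8 of 10 fits with 1 heart removed, where the adjusted p ranged from 0.0367 to 0.199 (edgeR, Benjamini-Hochberg), and also with RSEM expected counts (0.104 in the same test).

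Stretches before RefSeq starts of Jph2 and Casq2 are shown because both genes fell and because a searched promoter element was found at each. Cacna1c also fell and had GC boxes before a start, but its stretch is not shown. The search covered the 250 bases before each start in RefSeq's promoter table, which holds 8 of the 10 members with 12 starts. In the Jph2 stretch (chr2:163239921-163240163, GRCm39, minus strand, no annotated exon) the capitals mark the GC box GGGCGG, the kind of site that Sp1 binds. In the Casq2 stretch (chr3:101993652-101993681, GRCm39, plus strand, inside an exon of a Casq2 transcript in the GENCODE annotation) they mark a match to the MEF2 site, bound by the MEF2 factors of muscle.
Jph2: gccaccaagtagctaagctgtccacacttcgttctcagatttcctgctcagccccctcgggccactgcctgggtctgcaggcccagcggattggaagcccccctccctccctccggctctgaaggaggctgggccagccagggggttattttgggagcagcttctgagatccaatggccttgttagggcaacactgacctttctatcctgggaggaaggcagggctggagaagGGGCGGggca
Casq2: attgcatgatTTATTTTTAGctcgaaacaa

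Searched on both strands, the GC box was present before 5 of the 12 starts, and in 32.7% of all 32851 promoters in the table. Those 5 starts belong to 4 members, Cacna1c, Cacnb2, Hrc and Jph2. The GC box therefore stood before starts of genes that fell as well as of genes that were not called. At Cacna1c and Cacnb2 the windows with the box lay wholly inside annotated exons. The MEF2 site was found at Casq2 alone among the members, and in 2.92% of all promoters. The letters of the TATA box, TATAAA (12.4% of promoters), were found at Pln only, near the end of the window farthest from the start. That window lay wholly inside an annotated exon. Neither the E-box CACGTG (6.02%) nor the MCAT element CATTCC (12.6%) was found at any member. These are matches of letters and no measurement of binding.

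Inside the store, Casq2 (ENSMUSG00000027861, chromosome 3, 101993234 to 102056307, plus strand) encodes calsequestrin 2, the protein that buffers calcium near the release channel. Sedentary hearts 1 to 5 were at 976, 997, 1002, 963 and 908 CPM, and training hearts 1 to 5 at 869, 896, 794, 822 and 785 CPM. All 5 training hearts lay below all 5 sedentary hearts, with training heart 2 and sedentary heart 5 closest to each other. The means were 833 ± 48.1 CPM after training and 969 ± 37.9 CPM in sedentary hearts (SD, n = 5 each), a fall of 14.1%, or −0.22 on the log2 scale (standard error 0.048; edgeR, Benjamini-Hochberg adjusted p = 0.0305). Casq2 was the one member called in all 10 fits that left out a heart.

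Trdn (ENSMUSG00000019787, chromosome 10, 32956550 to 33356376, plus strand) encodes triadin, which anchors calsequestrin to the release channel. Sedentary hearts 1 to 5 were at 311, 320.1, 309, 322 and 309 CPM, and training hearts 1 to 5 at 305, 273, 258, 300.4 and 297 CPM. The groups did not overlap, but the training hearts were spread more widely, with training hearts 2 and 3 the lowest. The means were 287 ± 20.5 and 314 ± 6.31 CPM (SD, n = 5 each), and the log2 fold change of −0.13 (standard error 0.048) did not pass the test (edgeR, Benjamini-Hochberg adjusted p = 0.148). An antisense gene, D830005E20Rik, shares 1179 exon bases with Trdn and had between 462 and 755 counts per heart on its own strand, against 8949 to 12526 for Trdn.

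Ryr2 (ENSMUSG00000021313, chromosome 13, 11567988 to 12121870, minus strand), the release channel itself, was at 2529, 2336, 2511, 2492 and 2396 CPM in sedentary hearts 1 to 5 and at 2184, 2287, 2314, 2128 and 2402 CPM in training hearts 1 to 5. Training heart 5 reached into the sedentary range and the other 4 lay below it. The log2 fold change was −0.12 (standard error 0.047) and was not called by edgeR (Benjamini-Hochberg adjusted p = 0.187), whereas DESeq2's Wald test called it (adjusted p = 0.0802). Hrc (ENSMUSG00000038239, chromosome 7, 44984681 to 44988401, plus strand) encodes a histidine-rich calcium-binding protein of the store that also contacts triadin and the pump. It ranged from 925 to 1034 CPM after training and from 979 to 1098 CPM in sedentary hearts, with 3 training hearts below all sedentary ones, and differed by −0.12 on the log2 scale (standard error 0.048; edgeR, Benjamini-Hochberg adjusted p = 0.186).

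The RNA of the pump and of its inhibitor phospholamban showed no detectable difference. Atp2a2 (ENSMUSG00000029467, chromosome 5, 122591575 to 122640903, minus strand), which encodes the pump SERCA2, was at 16677, 17194, 17383, 18193 and 17460.5 CPM in sedentary hearts 1 to 5 and at 17097, 16903, 16834, 16979.8 and 17987 CPM in training hearts 1 to 5. The training range lay inside the sedentary range, and training heart 5 stood above the other training hearts. The log2 fold change was −0.018 (standard error 0.049; edgeR, Benjamini-Hochberg adjusted p = 0.876), with a 95% confidence interval from −0.12 to 0.087.

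Pln (ENSMUSG00000038583, chromosome 10, 53199622 to 53223512, plus strand) encodes phospholamban, the small membrane protein that holds the pump back until it is phosphorylated. Sedentary hearts 1 to 5 were at 4768, 5198, 5181, 5605 and 5404 CPM, and training hearts 1 to 5 at 5669, 5266, 4619, 5197 and 5391 CPM. The highest and the lowest heart were both training hearts. The means were 5228 ± 386 and 5231 ± 312 CPM (SD, n = 5 each), and the log2 fold change was −0.00083 (standard error 0.062, 95% confidence interval from −0.13 to 0.13; edgeR, Benjamini-Hochberg adjusted p = 0.996). The intervals of both genes thus include differences as large as the −0.12 measured for Ryr2 and Hrc. Pln shares 2688 exon bases with the opposite-strand gene Gm47644, but opposite-strand counts were at most 0.45% of the stranded counts at Pln. In the fit on counts of both strands the log2 fold change of Pln was 0.087, and the cause of this shift was not tested.

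Exchange with the outside is the role of Slc8a1 (ENSMUSG00000054640, chromosome 17, 81680534 to 82045891, minus strand), the sodium-calcium exchanger NCX1. It ranged from 426 to 491 CPM after training, with a mean of 450.1 ± 26.0 CPM, and from 445 to 506 CPM in sedentary hearts, with a mean of 487 ± 24.1 CPM (SD, n = 5 each). Of the training hearts, 3 lay below all sedentary hearts, and training hearts 2 and 5 lay among them. The log2 fold change was −0.11 (standard error 0.049; edgeR, Benjamini-Hochberg adjusted p = 0.221).

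Ratios of 2 members within a heart do not depend on how libraries are scaled to each other, and 9 such ratios were compared by exact two-sided permutation tests over the 252 assignments of the 10 hearts. The ratio of Cacnb2 to Cacna1c counts was 0.116, 0.123, 0.139, 0.137 and 0.107 in sedentary hearts 1 to 5, and 0.184, 0.190, 0.156, 0.164 and 0.151 in training hearts 1 to 5. Every training heart lay above every sedentary heart. The ratio was 36.4% higher after training, a difference of 0.45 on the log2 scale (exact permutation p = 0.00794, the smallest that 252 assignments can give, and 0.0714 after Benjamini-Hochberg adjustment over the 9 ratios).

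The ratio of the release channel to the pump, Ryr2 to Atp2a2, was 0.098 lower on the log2 scale after training (exact permutation p = 0.0317, Benjamini-Hochberg adjusted 0.143), from 0.125 to 0.137 against 0.136 to 0.152 in sedentary hearts. It passed the threshold in 1 of 10 tests that left out a heart, the one without training heart 3 (exact permutation, adjusted p = 0.0714). Over those 10 tests the adjusted p reached 0.381 (exact permutation, Benjamini-Hochberg). The ratio of Pln to Atp2a2, which bears on how much inhibitor there is per pump at the RNA level, was between 0.274 and 0.332 after training and between 0.286 and 0.310 in sedentary hearts. Its log2 difference was 0.016 (exact permutation p = 0.786, Benjamini-Hochberg adjusted p = 0.786). The other 6 ratios, Slc8a1 to Atp2a2, Casq2 to Ryr2, Trdn to Casq2, Hrc to Casq2, Jph2 to Ryr2 and Ryr2 to Cacna1c, had adjusted p between 0.327 and 0.696 (exact permutation tests, Benjamini-Hochberg). No change in proportion was thus detected within the release complex, though the 3 ratios that include Casq2 had log2 differences of −0.10, 0.084 and 0.10.

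**Figure D3:**
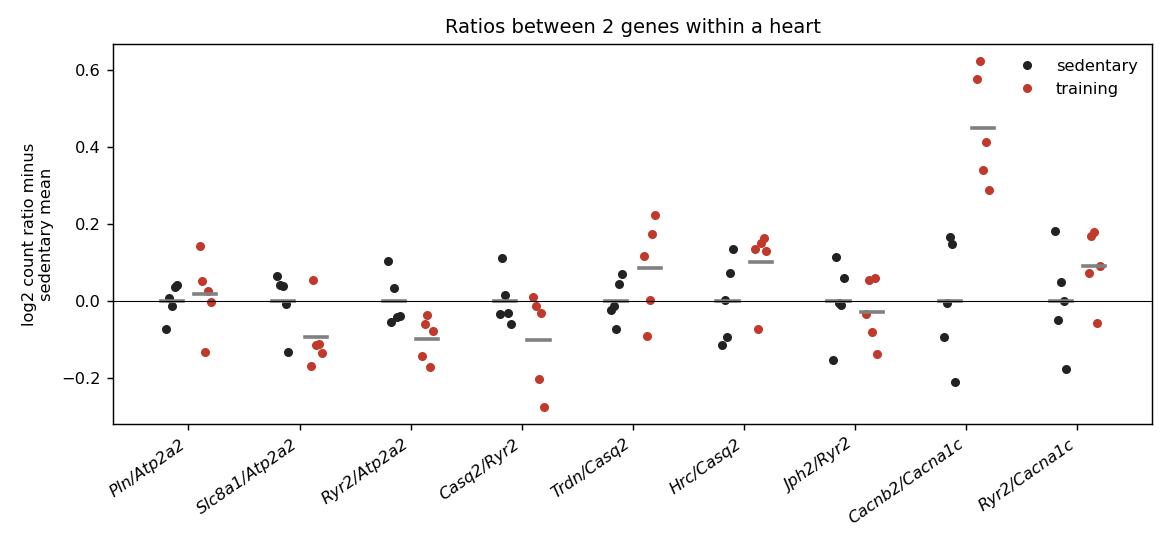
Log2 ratio of the counts of 2 genes within each heart, shown relative to the sedentary mean of that ratio, with sedentary hearts in black, training hearts in red and group means as grey bars. The 5 training hearts of Cacnb2/Cacna1c lie above all sedentary hearts, with a mean of 0.45 above them, whereas Pln/Atp2a2 differs by 0.016.

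Levels of different genes were compared as TPM, RSEM's share of transcripts, which take transcript length into account. Atp2a2 had the highest level, 4337 ± 122 TPM in sedentary hearts, followed by Pln at 3317 ± 126 TPM (SD, n = 5 each). Casq2 at 465 ± 15.1 TPM and Hrc at 454 ± 4.03 TPM came next, and over the 10 hearts their ranges overlapped. Ryr2 followed at 227 ± 17.6 TPM, ahead of Trdn at 178 ± 5.34 TPM and Jph2 at 156 ± 4.87 TPM, another pair with overlapping ranges. Slc8a1 (73.3 ± 4.51 TPM), Cacna1c (46.1 ± 2.22 TPM) and Cacnb2 (16.1 ± 1.68 TPM) were the lowest in sedentary hearts. Apart from these pairs, the ranges of neighbours in this order over the 10 hearts did not overlap.

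**Figure D4:**
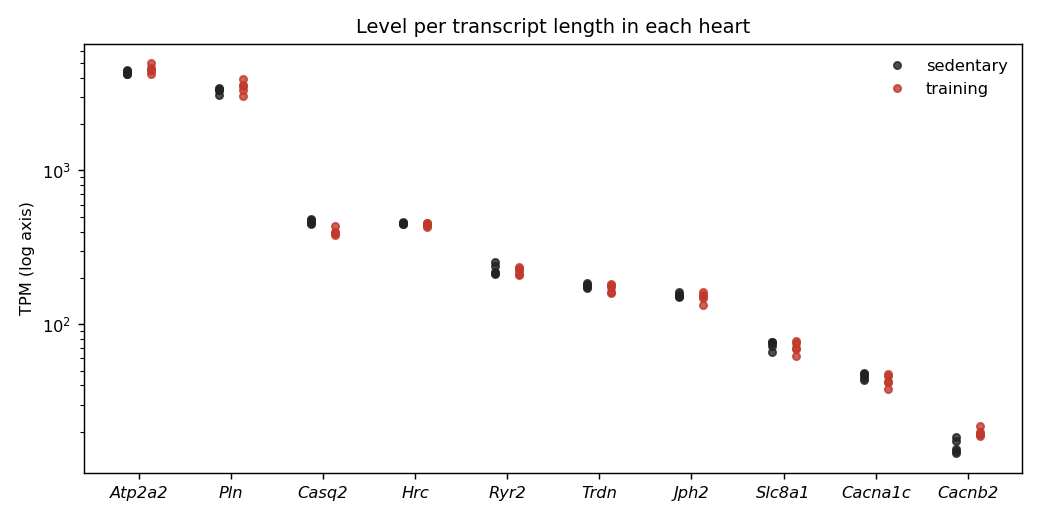
Level of the 10 genes in TPM on a log axis, 1 point per heart, with sedentary hearts in black and training hearts in red. The pump and its inhibitor sit at or above 3034 TPM, the genes of the release junction between 134 and 481 TPM, and the surface channel subunits at or below 48.5 TPM.

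After training Casq2 was at 398 ± 20.4 TPM and Hrc at 445 ± 11.3 TPM (SD, n = 5 each), so that Hrc had the higher mean, while their ranges overlapped in both groups. In TPM, too, the 5 training hearts of Casq2 lay below the 5 sedentary hearts. This did not hold for Trdn, whose groups overlapped in TPM (160 to 183 after training, 172 to 186 in sedentary hearts). The groups of Cacna1c and Jph2 also overlapped, with training means of 43.0 and 150 TPM against sedentary means of 46.1 and 156 TPM. Cacnb2 did not overlap in TPM, with a training minimum of 18.7 and a sedentary maximum of 18.4. The mean transcript length that RSEM weighted for Casq2 was between 2260 and 2339 bases in training hearts and between 2026 and 2279 bases in sedentary hearts, which was not tested. The 10 genes together held between 2.79% and 2.99% of the counts of a heart, and Atp2a2 alone between 59.95% and 62.1% of theirs.

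How alike 2 genes ran over the 10 hearts was described by the SD of their log2 CPM ratio, a small value meaning that they kept the same proportion. Among members the closest pairs were Trdn with Hrc (0.070), Jph2 with Slc8a1 (0.072) and Ryr2 with Slc8a1 (0.072), and the widest was Cacna1c with Cacnb2 (0.28). The search for like genes took in 8495 genes (mean CPM of 10 or more), and the nearest to Casq2 were Timm44 (0.023) and Mtif2 (0.037), to Cacna1c Perm1 (0.045) and Epas1 (0.051), and to Jph2 Opa3 (0.028) and Hspb8 (0.029). All of these values rest on the same 10 libraries.

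The other genes of calcium handling were taken from 6 lists of 81 genes, of which 76 had enough counts. Of the 76, 3 rose and 9 fell, with a median log2 fold change of −0.015, where 7.01% of all genes were called. With library totals alone 9 rose and 7 fell, with a median of 0.039, and with 1 heart left out between 1 and 7 rose and between 7 and 12 fell. In the list of other surface channel subunits and their RGK inhibitors, 2 of 14 tested genes rose and none fell (5 and none with library totals alone). Cacna2d2, an auxiliary α2δ subunit, rose from 18.2 ± 5.27 to 31.1 ± 8.06 CPM (log2 fold change 0.77; edgeR, Benjamini-Hochberg adjusted p = 0.0570). Rrad, a small GTPase that damps the L-type channel, rose from 115 ± 25.4 to 160.2 ± 35.1 CPM (log2 fold change 0.48; edgeR, Benjamini-Hochberg adjusted p = 0.0974). The groups overlapped in both genes, and the calls were kept in 4 (Cacna2d2) and 2 (Rrad) of the 10 fits that left out a heart. Rrad was also not called with DESeq2's Wald test (Benjamini-Hochberg adjusted p = 0.128) or with RSEM expected counts (edgeR, adjusted p = 0.114). The heart's main α2δ subunit, Cacna2d1, had a log2 fold change of −0.080 (edgeR, Benjamini-Hochberg adjusted p = 0.396).

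Around the release channel, 4 of 21 tested genes fell and none rose, where 4.26% of all genes were called lower. Asph, which also encodes junctin, a partner of triadin and calsequestrin, fell from 246 ± 6.93 to 218 ± 5.14 CPM (log2 fold change −0.17; edgeR, Benjamini-Hochberg adjusted p = 0.0232). Srl, which encodes the store's calcium binder sarcalumenin, fell from 1378 ± 59.3 to 1159 ± 62.9 CPM (log2 fold change −0.25; adjusted p = 0.0197 in the same edgeR test). Tmem38a and Tmem38b, the TRIC channels that balance charge during release, had log2 fold changes of −0.22 (edgeR, Benjamini-Hochberg adjusted p = 0.0162) and −0.29 (adjusted p = 0.0435). For Asph, Srl and Tmem38a every training heart lay below every sedentary heart, where 5.06% of all genes did not overlap between the groups. For Tmem38b 3 training hearts did. Its call was kept in 7 of the 10 fits that left out a heart and lost with library totals alone (edgeR, Benjamini-Hochberg adjusted p = 0.104). S100a1, a calcium sensor that binds the ryanodine receptor and the pump, had a log2 fold change of −0.16 (edgeR, Benjamini-Hochberg adjusted p = 0.155), and Fkbp1b, a subunit of the release channel complex, was at about 0.5 CPM in both groups (log2 fold change 0.038; edgeR, adjusted p = 0.953).

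Although Atp2a2 and Pln did not differ detectably, 2 of the 8 tested genes in the list of other pumps and pump regulators did, in opposite directions. Of all genes, 7.01% were called. Sln encodes sarcolipin, a pump inhibitor that in mice is made mainly in the atria. It was at 196, 101, 134, 155 and 102 CPM in sedentary hearts 1 to 5 and at 242, 187, 294, 233 and 203 CPM in training hearts 1 to 5. Of the training hearts, 4 lay above every sedentary heart, and the log2 fold change was 0.75 (edgeR, Benjamini-Hochberg adjusted p = 0.0316). Strit1 encodes DWORF, a micropeptide that relieves the pump from phospholamban. It was at 6.19, 6.48, 6.63, 6.66 and 6.03 CPM in sedentary hearts and at 5.01, 3.29, 5.14, 3.74 and 2.22 CPM in training hearts. All training hearts lay below all sedentary hearts, with a log2 fold change of −0.71 (edgeR, Benjamini-Hochberg adjusted p = 0.0380).

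In the remaining lists 4 genes fell and none rose, where 4.26% of all genes were called lower. With library totals alone 1 mitochondrial calcium gene and 2 genes for calmodulin, CaMKII and calcineurin were called higher. Fxyd1, which encodes phospholemman, a regulator of the sodium pump and the exchanger, fell by 0.21 on the log2 scale (edgeR, Benjamini-Hochberg adjusted p = 0.0444) and was the one called of 11 tested genes for surface pumps, exchangers and store-operated entry. With a trend on gene length removed, it stood at −0.12 and was no longer called (edgeR, Benjamini-Hochberg adjusted p = 0.177). Letm1, a cation exchanger of the inner mitochondrial membrane, fell by 0.24 (edgeR, Benjamini-Hochberg adjusted p = 0.0123), 1 of 10 mitochondrial calcium genes. Camk2b, a subunit of the calmodulin kinase CaMKII, fell from 15.6 ± 1.16 to 11.7 ± 1.08 CPM (log2 fold change −0.42; edgeR, Benjamini-Hochberg adjusted p = 0.0122). Calm3, a calmodulin gene, fell by 0.16 on the log2 scale (adjusted p = 0.0929 in edgeR with Benjamini-Hochberg adjustment) and kept its call in 1 of the 10 fits that left out a heart. They were 2 of 12 genes for calmodulin, CaMKII and calcineurin. The main cardiac kinase subunit Camk2d had a log2 fold change of 0.096 (edgeR, Benjamini-Hochberg adjusted p = 0.347).

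Atrial markers moved with the groups. Of 7 atrial markers, Dkk3, Kcnj3 and Sbk2 were higher in training hearts and none was lower, with a median log2 fold change of 0.46 over the 7. Their summed level ranged from 5079 to 7575 CPM in training hearts and from 2832 to 6837 CPM in sedentary hearts. Sedentary hearts 2 and 5 were the lowest, at 2832 and 2870.2 CPM, and none of the 7 markers was near 0 in the mean over hearts, the lowest being Sbk2 at 40.5 CPM. An atrial score, the mean of the markers' centred log2 CPM, ran from 0.0060 to 0.63 in training hearts and from −0.91 to 0.30 in sedentary hearts.

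**Figure D5:**
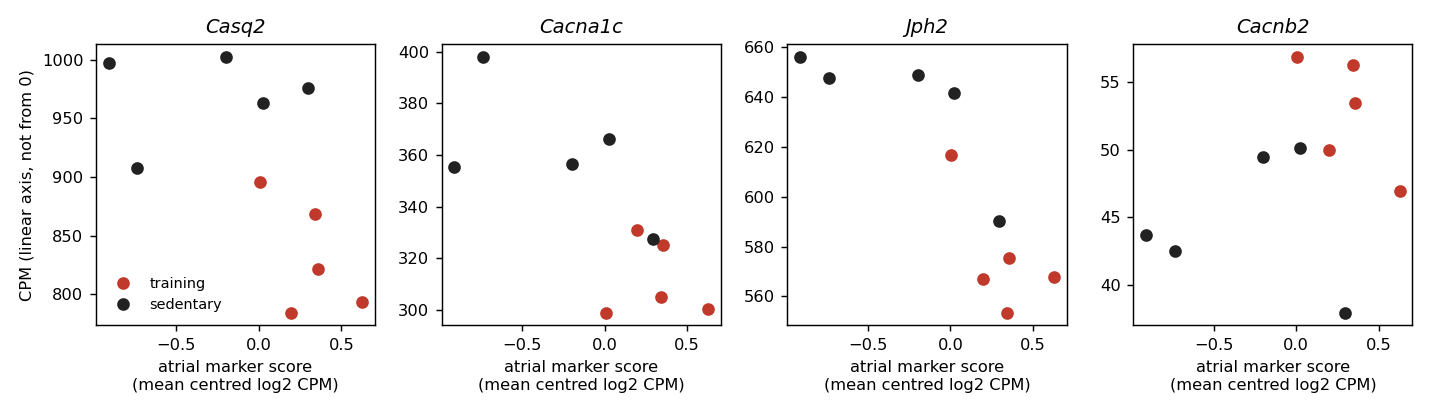
CPM of Casq2, Cacna1c, Jph2 and Cacnb2 (linear axes, not from 0) against the atrial marker score of each heart, with sedentary hearts in black and training hearts in red. All training hearts but only sedentary hearts 1 and 4 have scores above 0. The groups of Casq2 do not overlap at any score, so no range of scores could show them mixed. Sedentary heart 1 (score 0.30) lies within the training range for Cacna1c and Jph2, and sedentary heart 4 (score 0.024) lies above every training heart for both.

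With this score as a covariate in edgeR, none of the 10 members and none of the 76 other calcium genes was called, and 75 of all genes were. The log2 fold change of Casq2 was then −0.21 (Benjamini-Hochberg adjusted p = 0.239 in edgeR), of Cacna1c −0.14 (adjusted p = 0.448), of Jph2 −0.080 (adjusted p = 0.606) and of Sln 0.27 (adjusted p = 0.137). Among the other calcium genes, the log2 fold change was then 0.26 for Cacna2d2, −0.85 for Strit1, −0.37 for Tmem38b, −0.27 for Srl and −0.35 for Camk2b. It was 0.38 for Rrad, −0.15 for Asph, −0.17 for Tmem38a, −0.20 for Fxyd1, −0.19 for Letm1 and −0.071 for Calm3. Of these genes only Strit1, Tmem38b and Srl lay farther from 0 than in the fit without the score. Without sedentary hearts 2 and 5, a fit chosen after seeing the data, Casq2 was the 1 member called (log2 fold change −0.23; edgeR, Benjamini-Hochberg adjusted p = 0.0892), and Cacna1c stood at −0.16 (adjusted p = 0.200) and Jph2 at −0.12 (adjusted p = 0.331). The part of tissue composition in these differences was not tested beyond these fits.

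Of 6 cardiomyocyte markers Actc1 alone was called, and it was lower. The summed level of the 6 ranged from 52194 to 54540 CPM in training hearts and from 55319 to 63093 CPM in sedentary hearts, without overlap. The part of this difference in the falls of the calcium genes was not tested. Of 5 markers each, 1 fibroblast gene was higher (Pdgfra), 1 endothelial (Tie1) and 1 mural gene (Rgs5) were lower, and no macrophage gene was called. The 4 adipocyte markers had a median log2 fold change of 0.68, with summed levels from 19.8 to 164 CPM in training hearts and from 17.3 to 134 CPM in sedentary hearts. None of the 3 tested ventricular, 4 adipocyte or 5 tested skeletal muscle markers was called, and Myh1, Myh2 and Myh4 of skeletal muscle were at or near 0 in both groups.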

How the data were processed

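Whole-heart RNA of 5 training and 5 sedentary mice was sequenced as directional poly-A libraries of single reads in 1 pool. Per the submitters' processing notes, the authors aligned reads to GRCm39 with STAR 2.7.10a and deposited STAR's raw counts per gene for each strand, from uniquely mapped reads. They also deposited expected counts, TPM and FPKM from RSEM 1.3.3, whose strand setting is not given in the sources used here; FPKM were not used. Reverse-strand counts (94.9% to 95.6% of stranded counts) were analysed, without the lines that stand for no gene, such as multimapping reads (17.9% to 19.2% of reads). GENCODE M39 matched 56017 of 56748 identifiers and all 91 list genes. The promoter table is RefSeq's for GRCm38.p6, and its sequences were matched to GRCm39.

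In R 4.3.3, edgeR 4.0.16 was run with its filter on low counts (filterByExpr), TMM scaling and quasi-likelihood F test, p-values were adjusted by Benjamini-Hochberg, and genes were called at an FDR below 0.1, the study's threshold. CPM use TMM-corrected totals. Log2 CPM for scores and for the likeness of genes used a prior count of 2. Groups came from the labels, with 1 heart per mouse, and the fit had the group as its only term. Alternatives were DESeq2 1.42.0, other scalings, filters and counters, thinned counts, a gene length trend, the atrial score, mouse number as a block, an FDR below 0.05 and each heart left out. A fit without the 2 hearts of lowest atrial score was added after seeing the data. Named genes were the 10 members, every called gene of the pathway lists, 10 genes of these lists whatever their result (1 of them is not reported here), and for likeness the 2 nearest genes of each called member. The members and lists were chosen with earlier results of these data known. The steps were tested on simulated data.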

Additional observations from a re-analysis of the deposited data

Results flagged for a closer look

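Of 54 groups of 5 hearts examined for 27 named genes, 4 held a heart whose gap to its nearest neighbour was large against the range of its group (Dixon's 95% critical value), and chance alone gives about 1 in 20. Jph2 in sedentary heart 1 was at 590.3 CPM, with the other sedentary hearts between 642 and 656 CPM. Atp2a2 in training heart 5 was at 17987 CPM, against 16834 to 17097 CPM in the other training hearts. Srl in training heart 2 was at 1271 CPM, against 1126 to 1137 CPM, and still lay below every sedentary heart. Camk2d in training heart 4 was at 177 CPM, against 185 to 188 CPM. Of these, the Jph2 heart touches a call: without sedentary heart 1 the adjusted p of Jph2 was 0.0367, the lowest of the fits that left out 1 heart (edgeR, Benjamini-Hochberg).

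The counts on the strand opposite to the analysed one, which enter no result above except the fits on both strands, held a median of 4.18% of the stranded counts at Trdn (3.52% to 5.14% over the hearts), against at most 1.3% at any other member. The antisense gene D830005E20Rik overlaps Trdn there. No control sample bears on this signal.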

How the results depend on the processing

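Again 3 members were called with DESeq2 size factors, library totals, both filters, both strands, thinned counts and a gene length trend removed, but with library totals and with no filter Cacnb2 took the place of Jph2. With RSEM and at an FDR below 0.05 there were 2, without Jph2. The count moved to 5 with DESeq2's Wald test (Cacnb2 and Ryr2 added), to 0 with the atrial score as a covariate, to 1 without sedentary hearts 2 and 5, and to between 1 (without sedentary heart 3) and 4 when 1 heart was left out. The 12 other calcium genes became 0 with the atrial score, 5 without those 2 hearts and between 8 and 19 with 1 heart left out (19 without sedentary heart 1). The 1084 genes became 75 with the atrial score, 282 without those 2 hearts, 505 at an FDR below 0.05 and between 512 and 1490 with 1 heart left out. Called ratios numbered between 1 and 2 (2 without training heart 3).

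Signs turned only in values that no fit called. Pln was at 0.00055 with DESeq2, 0.0014 with its size factors, 0.053 with library totals, 0.087 with both strands, 0.00030 with thinned counts, 0.058 with the atrial score, 0.016 without the 2 hearts and from −0.032 to 0.041 with 1 heart left out. Atp2a2 was at 0.036 with library totals. Fkbp1b was at −0.0056 with both strands, −0.28 with the atrial score, −0.050 without the 2 hearts and from −0.21 to 0.19 with 1 heart left out. Leaving out 1 heart gave −0.015 to 0.053 for Pln/Atp2a2 and −0.067 to 0.00033 for Jph2/Ryr2. The causes were not tested.

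With the mouse number as a replicate block 3 members, 13 other calcium genes and 1137 genes in all were called, and Calm3 lost its call (edgeR, Benjamini-Hochberg adjusted p = 0.125). The numbers do not pair the hearts: residuals of same-numbered hearts correlated between −0.097 and 0.16, and 1 of 5 training hearts correlated best with its own number. With at least 1496 counts per heart, depth did not limit the members, but Fkbp1b rests on about 0.5 CPM.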
